A study of Homo sapiens with 39 samples.

Results

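PLA2G6 is 1 of the 60671 genes listed in the deposited gene table, and 39 of its transcripts are listed in the transcript table. It was selected on its values in these libraries, as a gene of the SOX10 neighbourhood that was lower in some clones, so its levels and its differences between groups are given as a description with no test. Every one of the 39 libraries was used. In both lines PLA2G6 passed the filter for testing, which asks for 3 or more libraries of the line at 1 TPM or above. TPM is a length-corrected share of each library.

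PLA2G6 encodes a calcium-independent phospholipase A2 (iPLA2-beta) that cuts a fatty acid from membrane phospholipids and leaves a lysophospholipid. The enzyme is known for membrane repair and for remodelling of mitochondrial phospholipids, and inherited loss of it causes infantile neuroaxonal dystrophy with iron in the brain. SOX10 and MITF are transcription factors of the melanocyte lineage: SOX10 acts through ACAAAG-type sites and switches on MITF, and MITF binds E-boxes such as CACGTG.

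A375 and WM115 are established human melanoma lines. The A375 groups were unedited cells (WT, 4 libraries), clones 1.1 (3) and 1.2 (4) with the regulatory region R1 of SOX10 deleted, and clones 4.1 (4) and 4.2 (3) with the region R4 deleted. The WM115 groups were WT (4), R1 clones 1.1 (5) and 1.2 (3), R4 clones 4.1 (3) and 4.2 (3), and clone 1.3 (3), whose title points to R1 and whose genotype label points to R4. Each deletion group is 1 clone sampled repeatedly, the labels do not say whether its libraries came from separate cultures, and the sources used here give no coordinates for R1 or R4. Clone 1.3 is described as a group of its own and put with neither region.

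The libraries differed in ways the groups do not explain. Library 3 of WM115 clone 1.2 held SOX10 at 9.56 TPM against 279 and 272 TPM in libraries 1 and 2 of that clone, and library 3 of WM115 clone 1.3 had the highest mitochondrial share, 19.4% of its TPM. That share ran from 0.968% to 4.92% in A375 and from 4.71% to 19.4% in WM115, and it was 13.7% to 15.6% in WM115 WT. Main values that rest on these libraries are also given without them. Both lines held SOX10, S100B and S100A1, whereas PMEL, MLANA, TYR, DCT and TYRP1, which define pigment cells, reached at most 2.54 TPM in A375. The leukocyte markers PTPRC and CD3E, and EPCAM, stayed at or under 0.483 TPM in every library. LYZ, a gene of myeloid cells, stood at 1.23 to 12.3 TPM in A375, PECAM1, an endothelial gene, reached 12.0 TPM in WM115, and ACTA2, a smooth muscle actin, stood at 5.54 to 60.7 TPM over both lines. COL1A2, a fibroblast collagen gene, stood at 365 to 857 TPM in WM115, and KRT14 reached 30.4 TPM in A375. Listed beside these, COL1A1 reached 2.43 TPM and DCN 4.34 TPM in WM115, and 4.55 and 2.39 TPM in A375. KRT5 reached 0.731 TPM in A375, and VWF, listed beside PECAM1, reached 0.365 TPM in WM115 and 0.486 TPM in A375. The part of other cells in the results was not tested. In such bulk libraries, fewer cells with a transcript and less of it per cell cannot be told apart.

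PLA2G6 (ENSG00000184381) lies on the minus strand of chromosome 22 at chr22:38111495-38205690 (GRCh38, GENCODE 29), 124 kb above the upstream end of SOX10 at chr22:37970686-37987422. Its promoter is shown because PLA2G6 and its neighbour MAFF were both low in WM115 clones 1.1, 1.2 and 4.2, and MAFF, at chr22:38200767-38216511 on the plus strand, runs away from PLA2G6 and overlaps the outermost annotated PLA2G6 transcript. The sequences are from RefSeq (GRCh38.p14) and span 250 bases before to 50 after the start site, 5′ to 3′ on the gene's strand: chr22:38181781-38182080 for PLA2G6, and chr22:38201744-38202043 and chr22:38202770-38203069 for the promoters of MAFF. Capitals mark the E-box CACGTG and the CCAAT box on either strand (ATTGG when read on the other strand).
PLA2G6 promoter: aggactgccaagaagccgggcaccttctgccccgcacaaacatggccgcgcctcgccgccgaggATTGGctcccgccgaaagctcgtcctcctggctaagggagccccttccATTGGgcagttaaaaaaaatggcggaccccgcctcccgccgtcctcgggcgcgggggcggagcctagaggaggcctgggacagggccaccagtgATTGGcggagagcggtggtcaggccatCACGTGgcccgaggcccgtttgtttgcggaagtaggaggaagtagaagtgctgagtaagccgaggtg
MAFF promoter 1: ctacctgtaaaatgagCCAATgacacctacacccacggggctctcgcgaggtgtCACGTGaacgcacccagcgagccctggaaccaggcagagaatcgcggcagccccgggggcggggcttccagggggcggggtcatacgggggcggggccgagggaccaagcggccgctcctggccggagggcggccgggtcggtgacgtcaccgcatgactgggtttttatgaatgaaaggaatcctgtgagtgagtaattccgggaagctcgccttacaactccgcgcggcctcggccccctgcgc
MAFF promoter 2: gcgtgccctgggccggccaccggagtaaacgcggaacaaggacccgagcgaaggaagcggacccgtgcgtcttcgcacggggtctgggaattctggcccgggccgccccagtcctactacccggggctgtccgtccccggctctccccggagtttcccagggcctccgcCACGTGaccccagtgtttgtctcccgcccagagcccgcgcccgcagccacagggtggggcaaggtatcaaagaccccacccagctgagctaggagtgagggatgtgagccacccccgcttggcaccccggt

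The PLA2G6 promoter held 1 CACGTG, which begins 17 bases before the start site, and 3 CCAAT boxes on the opposite strand, 186, 138 and 44 bases before it. The MAFF promoters held a CACGTG each, 196 and 81 bases before their start sites, and the first also held a CCAAT box. Of 35116 promoters of the same length, 7.26% hold CACGTG and 34.6% hold CCAAT on either strand. A second E-box (CATGTG, in 11.1% of promoters), the SOX core ACAAAG (16.1%) and the AP-1 site TGANTCA (7.71%) were searched on both strands, and these letters are not in the 3 windows. No match overlapped another. GC content was 65.3% in the PLA2G6 promoter against a median of 58.7% over all of them.

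The protein-coding transcripts PLA2G6-201 and PLA2G6-203 differ by an exon that separates the long from the short form of the enzyme. Exon 9 of the 17 exons of PLA2G6-201 (chr22:38128269-38128430, GRCh38, sequence from the GENCODE 29 transcripts) is absent from the 16 exons of PLA2G6-203. It is 162 bases long, which is 54 codons with a remainder of 0, so it inserts a stretch into the protein without shifting the frame. It is shown because the transcripts are later grouped by it; no part is in capitals.
PLA2G6-201 exon 9: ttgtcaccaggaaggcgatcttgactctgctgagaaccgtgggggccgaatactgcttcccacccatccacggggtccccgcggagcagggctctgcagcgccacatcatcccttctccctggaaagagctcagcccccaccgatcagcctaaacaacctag

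PLA2G6 was abundant in WM115 WT, low in all other WM115 clones except 1.3, and scarce in every A375 group. WM115 WT libraries 1 to 4 held 324, 377, 257 and 354 TPM (mean 328 ± 51.9, SD, n = 4). A375 WT libraries 1 to 4 held 5.40, 11.1, 8.97 and 4.28 TPM (7.45 ± 3.17, SD, n = 4). The ranges lie far apart: the lowest WM115 WT library was 23.1 times the highest A375 WT library, and the ratio of the means was 44.0. The same ratio was 0.743 for SOX10 and 5.75 for MITF, so the unedited lines differed in PLA2G6 far more than in either factor.

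WM115 R1 clone 1.1 held PLA2G6 at 30.0, 25.8, 15.8, 68.7 and 85.2 TPM in libraries 1 to 5. R1 clone 1.2 held 88.0, 93.7 and 9.46 TPM in libraries 1 to 3. R4 clone 4.1 held 40.4, 36.3 and 76.1 TPM, and R4 clone 4.2 held 19.5, 36.4 and 104.5 TPM. All 14 of these libraries lie below the lowest WM115 WT library, and with every library kept the clones overlap each other. Libraries 1 and 2 of clone 1.2 lie above all libraries of clones 1.1 and 4.1, so its overlap with these rests on its library 3. Clone 1.3 held 206, 111 and 674 TPM: libraries 1 and 2 were below every WT library and library 3 was above every one of them, so this clone spans WT.

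The mean of WM115 WT was 7.27 times that of clone 1.1, 5.14 times that of clone 1.2 (3.61 without its library 3), 6.44 times that of clone 4.1 and 6.13 times that of clone 4.2. On the log2(TPM + 1) scale, which understates the change of low values, PLA2G6 differed from WT by -3.08 (SE 0.65) in clone 1.1 and -2.87 (SE 0.74) in clone 1.2. The R4 clones differed by -2.73 (SE 0.74) in 4.1 and -2.91 (SE 0.74) in 4.2, and clone 1.3 by -0.38 (SE 0.74). With every library kept, the differences of the R1 and R4 clones lie within 1 SE of each other and do not order these 4 clones. Without library 3 of clone 1.2 its difference was -1.83, the smallest fall of these 4 clones. Without library 3 of clone 1.3 that clone's difference was -1.09. All of these clones are compared with the same 4 WT libraries.

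In A375 the R1 clones held PLA2G6 at 7.22, 4.12 and 3.18 TPM (1.1, libraries 1 to 3) and at 6.42, 5.32, 11.7 and 14.7 TPM (1.2, libraries 1 to 4). The R4 clones held 6.97, 5.80, 11.8 and 2.34 TPM (4.1) and 6.25, 4.59 and 8.52 TPM (4.2). Every A375 clone overlaps A375 WT. Log2 differences from WT were -0.51 (SE 0.42) in clone 1.1, 0.30 (SE 0.39) in 1.2, -0.21 (SE 0.39) in 4.1 and -0.14 (SE 0.42) in 4.2, and their order is not resolved at this spread.

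**Figure D1:**
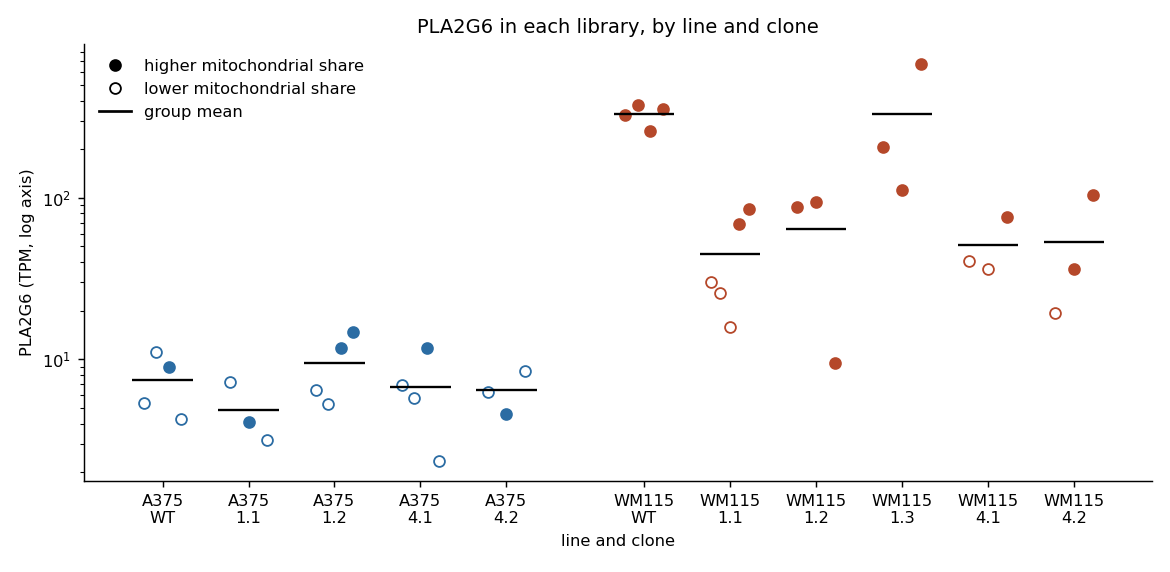
PLA2G6 level (TPM, log axis) in each of the 39 libraries by line and clone; black bars are group means, and filled points are libraries above a mitochondrial share of 2.5% in A375 (blue) or 7.5% in WM115 (red). The 4 WM115 WT libraries sit between 257 and 377 TPM, above all libraries of clones 1.1, 1.2, 4.1 and 4.2, while every A375 library is at or under 14.7 TPM.

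The position of PLA2G6 among all genes moved accordingly. By group mean it ranked 378 of 60671 genes in WM115 WT and in clone 1.3, between 2349 and 3324 in the other WM115 clones, and between 9298 and 10818 in A375. Without library 3 it ranked 1619 in clone 1.2 and 881 in clone 1.3, where the mean fell from 331 to 159 TPM. Only 26, 24, 55 and 45 of the 16997 genes tested fell further than PLA2G6 in WM115 clones 1.1, 1.2, 4.1 and 4.2, a description of values that led to its selection.

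PLA2G6 also changed place among the genes of its enzyme family. Of 32 phospholipase A2 genes and relatives, PLA2G6 had the highest level per length in WM115 WT, with 39.4% of the family's summed TPM, and in clone 1.3, with 39.7%. It ranked 4 in clones 1.1, 1.2, 4.1 and 4.2, with 9.49% to 10.1%. In these clones the first place went to PAFAH1B1, a subunit of an acetylhydrolase of platelet-activating factor, or to PNPLA2, the triglyceride lipase ATGL. Without library 3 it ranked 3 with 14.6% in clone 1.2, and it stayed first in clone 1.3 with 24.3%. In A375 it ranked 10 to 12 with 0.777% to 1.38%.

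The level of PLA2G6 moved with the mitochondrial share of the library. WM115 libraries above a share of 7.5% held 9.46 to 674 TPM (median 104.5, n = 15) and those below it held 15.8 to 40.4 TPM (median 27.9, n = 6). Within clone 1.1 the libraries above that boundary held 68.7 and 85.2 TPM and the 3 below it at most 30.0 TPM, and clones 4.1 and 4.2 were also highest in a library above it. All 4 WT libraries lie above the boundary, which was placed after the values were seen. Among libraries above it, WT (257 to 377 TPM) still did not overlap clone 1.1 (68.7 and 85.2), 1.2 (9.46, 88.0 and 93.7), 4.1 (76.1) or 4.2 (36.4 and 104.5). With only these libraries the log2 difference was -2.07 in clone 1.1 and -2.08 in clone 4.1, and with the set of libraries as a term it was -2.19 and -1.74.

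PLA2G6 was set against SOX10 and MITF of the same library, and against the mitochondrial share. Over the 21 WM115 libraries, log2(TPM + 1) of PLA2G6 had a Pearson's r of 0.48 (Spearman's rho 0.43) with SOX10, 0.70 (0.68) with MITF and 0.73 (0.73) with the mitochondrial share. Libraries of a clone share that clone, and depth is unknown, so these carry no p. Without the 2 libraries farthest from the median, r was 0.38 with SOX10, 0.62 with MITF and 0.68 with the mitochondrial share. When each library was taken as its deviation from its group mean, r was 0.61 with SOX10 and 0.77 with MITF; without library 3 of clone 1.2 these were 0.10 and 0.60. With the mitochondrial share the same values were 0.60 and 0.88, the highest of the 3 relations without that library. Within clones the relation with SOX10 therefore rests on that library, where PLA2G6 (9.46 TPM), MITF (6.16 TPM) and SOX10 (9.56 TPM) were all at the lowest WM115 level. Among WM115 libraries of high mitochondrial share (n = 15) r was 0.78 with SOX10 and 0.85 with MITF, and among those of low share (n = 6) it was -0.20 and -0.42, so neither relation holds within both sets.

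SOX10, MITF and PLA2G6 moved apart in some WM115 clones and together in another. SOX10 was 408 ± 50.6 TPM in clone 1.1 (SD, n = 5), 405 ± 54.3 in 4.1 (n = 3) and 422 ± 93.7 in 4.2 (n = 3), against 507 ± 48.3 in WT (n = 4). The WT mean of SOX10 was thus 1.24, 1.25 and 1.2 times that of these clones, where the ratio for PLA2G6 was above 6. MITF was 71.0 ± 23.9 TPM in clone 1.1 (n = 5) against 10.5 ± 1.08 in 4.1 and 16.5 ± 1.63 in 4.2 (n = 3 each) and 128 ± 46.4 in WT (n = 4). MITF of clone 1.1 thus lay above that of both R4 clones in every library, at overlapping PLA2G6 levels. In clone 1.2, by contrast, all 3 genes were lower than the WT mean in every library: SOX10 stood at 279, 272 and 9.56 TPM, all below WT, and MITF at 41.4, 88.4 and 6.16 TPM, of which the second lies in the WT range. The WT mean of SOX10 was 2.71 times that of clone 1.2 and 1.84 times without its library 3. In library 3 of clone 1.3, PLA2G6 (674 TPM) and MITF (202 TPM) were both at their highest, while SOX10 (525 TPM) lay within the WT range.

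Over the 18 A375 libraries r was 0.03 (rho 0.09) with SOX10, 0.31 (0.27) with MITF and 0.55 (0.50) with the mitochondrial share. A375 clone 1.2 had SOX10 at 441, 406, 473 and 451 TPM, under every A375 WT library (630 to 706), and PLA2G6 that overlapped WT. MITF was 22.3 ± 3.30 TPM in WT (SD, n = 4) and 8.41 ± 1.63 in clone 1.1 (n = 3), where PLA2G6 also overlapped WT. With MITF, r was 0.00338 among the 12 A375 libraries of low mitochondrial share and 0.80 among the 6 of high share, and with SOX10 it was 0.15 and 0.05.

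**Figure D2:**
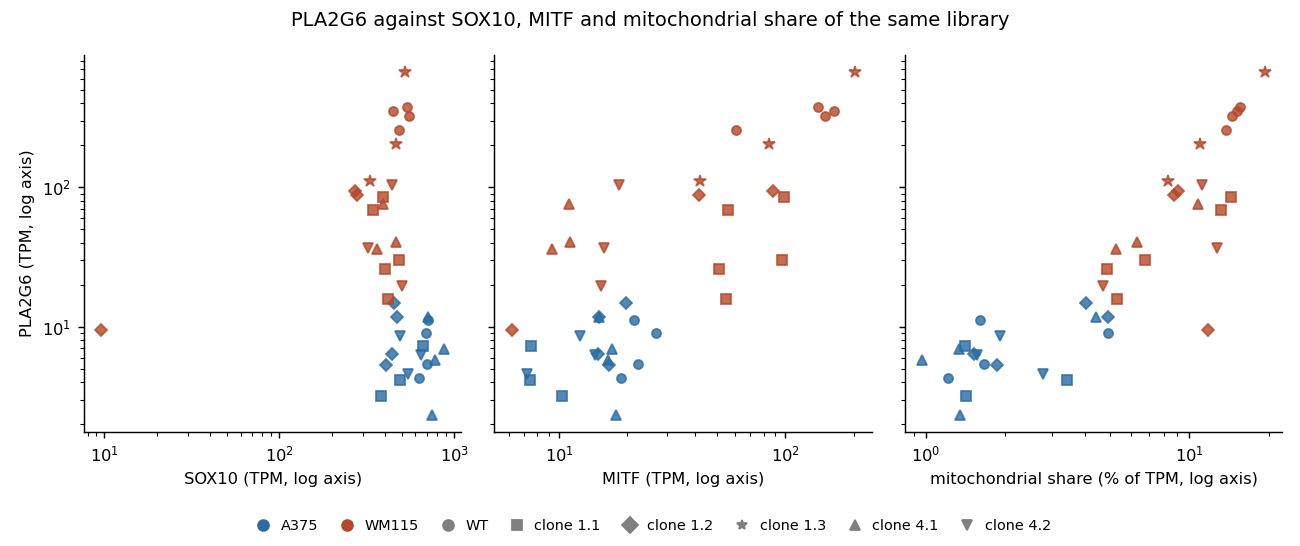
PLA2G6 (TPM, log axis) of each library against its SOX10 level (left), MITF level (middle) and mitochondrial share (right), all on log axes; colour gives the line and shape the clone. WM115 R4 clones 4.1 and 4.2 sit at MITF levels of 9.25 to 18.3 TPM with PLA2G6 between 19.5 and 104.5 TPM, and library 3 of WM115 clone 1.2 stands alone at SOX10 9.56 TPM.

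The main transcripts of PLA2G6 were all lower in the WM115 clones other than 1.3. Of the 39 listed, 34 were above 0 in at least 1 library and 5 were listed at 0 in all. The transcripts summed to the gene's level within 0.0006 TPM. Highest in WM115 WT were PLA2G6-216 at 74.1 ± 12.2 TPM, PLA2G6-224 at 59.8 ± 9.61 TPM and the short coding form PLA2G6-203 at 44.7 ± 8.13 TPM (SD, n = 4). In clone 1.1 these stood at 10.6 ± 8.39, 7.72 ± 5.79 and 7.06 ± 3.24 TPM (SD, n = 5), and in clone 4.1 at 12.0 ± 7.64, 8.52 ± 4.62 and 5.89 ± 3.94 TPM (SD, n = 3). PLA2G6-201, the complete long form, was listed above 0 in 1 of 39 libraries, at 0.147 TPM in library 3 of A375 clone 1.2.

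The shares of coding and retained-intron transcripts in the WM115 clones overlapped those of WT. Transcripts that the deposited table types as protein coding made up 31.0% ± 1.06 of PLA2G6 TPM in WT (SD, n = 4), 33.4% ± 6.74 in clone 1.1 (n = 5), 27.4% ± 4.44 in 1.2, 30.6% ± 2.15 in 1.3, 32.99% ± 3.67 in 4.1 and 35.6% ± 6.86 in 4.2 (n = 3 each). Types with a retained intron made up 36.6% ± 1.31 in WT and a mean of 37.5% to 39.3% in the 5 clones. Transcripts typed as subject to nonsense-mediated decay were 10.3% ± 0.29 in WT (9.99% to 10.7%) and 6.40% ± 0.49 in clone 4.2 (5.91% to 6.89%), which do not overlap, while the other 4 clones overlapped WT. In A375 WT, at far lower levels, the coding share was 41.5% ± 14.1 and the retained-intron share 28.4% ± 7.95 (SD, n = 4).

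Length changes this picture, because TPM counts a short fragment transcript as highly as a long one. PLA2G6-216 is 781 bases, PLA2G6-224 601 bases and PLA2G6-203 3011 bases long in GENCODE 29, which places 28 of the 39 transcripts. Weighted by length over the placed transcripts, PLA2G6-203 held 42.9% of the signal in WM115 WT and 33.7% to 47.5% in its clones, against 18.4% and 17.3% to 22.6% for PLA2G6-216. The placed transcripts carried 70.9% to 97.9% of PLA2G6 TPM in a library. The deposited table types PLA2G6-216 as retained intron and GENCODE 29 as protein coding, so the release behind the values is another one and the structures may differ.

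The exon printed above is part of PLA2G6-201, PLA2G6-214 (typed as subject to nonsense-mediated decay) and PLA2G6-216, and PLA2G6-202, PLA2G6-203 and PLA2G6-221 join across it. PLA2G6-223, typed as retained intron, contains its bases within a longer exon of 270 bases and was left out; counting it too gave 68.1% in WM115 WT, 61.3% in clone 1.2 and 67.2% in 1.3. The transcripts with the exact exon took 66.6% ± 2.57 of the TPM of these 6 in WM115 WT (SD, n = 4). The share was 57.2% ± 11.02 in clone 1.1 (n = 5), 60.6% ± 2.30 in 1.2, 65.4% ± 2.51 in 1.3, 61.2% ± 16.4 in 4.1 and 66.8% ± 8.85 in 4.2 (n = 3 each). WT at 64.3% to 70.3% lies inside the range of clones 1.1, 4.1 and 4.2, overlaps clone 1.3 (62.8% to 67.8%) and lies above the 3 libraries of clone 1.2 (58.0% to 62.4%), which are also below clone 1.3. In A375 WT the share was 42.9% ± 8.74 (SD, n = 4), from mean levels of 1.40 TPM with the exon and 1.86 TPM across it. In WM115 WT, PLA2G6-216, of 781 bases, made up 74.1 of the 89.9 TPM with the exon, and PLA2G6-201 none of it. Weighted by length over the placed transcripts, PLA2G6-216 and PLA2G6-214 held 18.4% and 5.76% there, against 42.9% for PLA2G6-203. By length, more of the WM115 WT signal thus joined across the exon than held it. The share in TPM is therefore no measure of the long against the short form. The 11 transcripts not placed by GENCODE could not be assigned to either side.

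**Figure D3:**
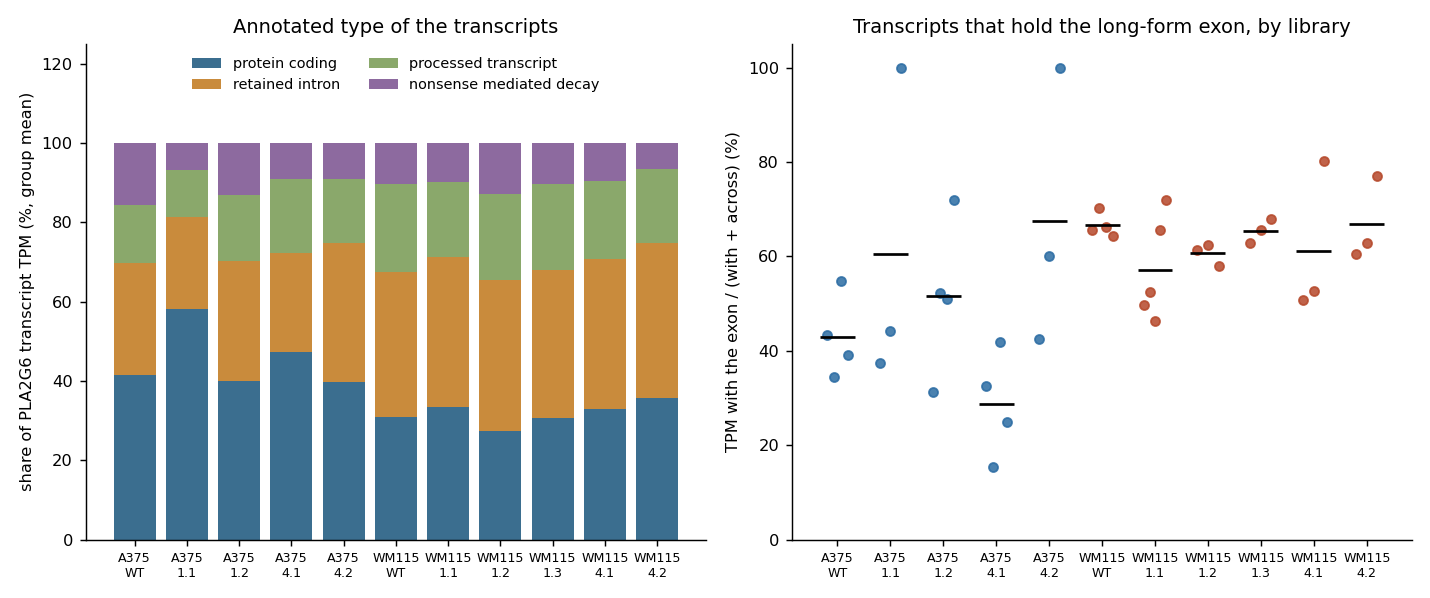
Left, mean share of PLA2G6 transcript TPM (%) by the type given in the deposited table, per group; right, share (%) of TPM on the transcripts that hold exon 9 of PLA2G6-201 among those that hold it or join across it, one point per library (blue A375, red WM115) with group means as bars. The WM115 groups keep a coding share of 27.4% to 35.6%, and the exon-holding shares of clone 1.2 lie below those of WT and of clone 1.3.

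The genes around PLA2G6 were chosen by position alone and were tested with limma. Of the 100 genes within 1 Mb of PLA2G6, SOX10 left out, 49 were tested in A375 and 53 in WM115. In WM115, 12 of 53 passed at an adjusted p under 0.05 in clone 1.1 (3 higher, 9 lower), where 22% of all genes tested passed. In clone 1.2, 24 passed (4 higher, 20 lower) against 22.6% of all genes, but without its library 3 only 4 passed, where 5.61% of all genes did. In the R4 clones 13 passed in 4.1 (8 higher, 5 lower; 24.2% of all genes) and 11 in 4.2 (6 higher, 5 lower; 20.3%). In clone 1.3 only RAC2 passed, at 1.06% of all genes. Outside clone 1.2, the share of neighbours within 1 Mb that passed is near that of all genes. Within 0.5 Mb the share was 33.3% in clone 1.1, 24.2% in 4.1 and 15.2% in 4.2. With WM115 libraries of high mitochondrial share only, 3 neighbours passed in clone 1.1, 13 in 1.2, 0 in 1.3 and 2 in 4.2. Of all genes tested, 4.55%, 11.5%, 0.359% and 6.51% passed in these clones with the same libraries. Clone 4.1, with 1 such library, is not counted here.

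Direction among these calls depended on the scaling. The median log2 difference of all genes tested was -0.12 in clone 1.1 and -0.10 in clone 4.1, and median-of-ratios scaling moved it to -0.00234 and 0.00828. With that scaling 6 neighbours were higher and 6 lower in clone 1.1, and 9 higher and 3 lower in 4.2; with quantile normalization the split was 5 and 4 in clone 1.1 and 7 and 3 in 4.2. In clone 1.2 the median over neighbours was -0.27 and over the 398 tested genes of chromosome 22 it was -0.45, with 155 of those 398 past the test and 142 of them lower. The low values in that clone extended over the chromosome. Without its library 3 the chromosome's median was -0.28 and 31 of 398 passed, 24 of them lower.

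In A375, 5 of 49 neighbours passed in clone 1.2, all higher, where 8.53% of all genes passed, and 0 passed among libraries of low mitochondrial share. None passed with limma in clones 1.1, 4.1 and 4.2, where 1.04%, 1.31% and 0.557% of all genes did, and 8, 3 and 1 of the 49 had an unadjusted p under 0.05. The replicate numbers pair the libraries of clone 4.1 with those of WT, and with the number as a block 6 neighbours passed there. The share of all genes that passed with that block is not given here, so the 6 cannot be set against 1.31%. None of the 7 nearest neighbours tested passed in any A375 clone without the block.

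With every library kept, the genes next to PLA2G6 that passed in WM115 were all lower. For SLC16A8 and AL022322.1 this direction carries no weight, because both met the filter for testing through WT, where they are high. In clones 1.1, 1.2, 4.1 and 4.2 SLC16A8 stayed at or under 0.832 TPM and AL022322.1 at or under 1.015 TPM. Of the 9 nearest neighbours tested, 5 passed in clone 1.1, 8 in 1.2, 3 in 4.1, 4 in 4.2 and none in 1.3, beside 22%, 22.6%, 24.2%, 20.3% and 1.06% of all genes. Without library 3 of clone 1.2 only PICK1 passed there. In clone 1.1, 3 passed with median-of-ratios scaling and 2 with quantile normalization. Among libraries of high mitochondrial share 0, 5 and 1 passed in clones 1.1, 1.2 and 4.2, beside 4.55%, 11.5% and 6.51% of all genes. MAFF, a small MAF transcription factor, held 237, 217, 104.9 and 249 TPM in WM115 WT libraries 1 to 4. It held 71.1, 52.1, 56.5, 61.2 and 79.7 TPM in clone 1.1, 94.3, 95.1 and 12.95 TPM in clone 1.2, and 46.6, 38.5 and 78.8 TPM in clone 4.2, all below every WT library. In clone 4.1 it held 139, 96.0 and 94.9 TPM, which overlaps WT, and in clone 1.3 it held 139.9, 112 and 584 TPM, with library 3 highest as for PLA2G6. Its log2 differences were -1.58 (limma adjusted p = 0.0311) in clone 1.1, -1.94 (limma adjusted p = 0.0229) in 1.2 and -1.86 (limma adjusted p = 0.0285) in 4.2, against -0.82 (limma adjusted p = 0.317) in 4.1. The MAFF call was lost in 6 of 11 omissions of a single library in clone 1.1, 4 of 8 in 1.2 and 5 of 9 in 4.2. Without library 3 of clone 1.2 its difference there was -1.01 (limma adjusted p = 0.216), and among libraries of high mitochondrial share no clone passed. In A375 MAFF stayed between 13.4 and 26.5 TPM in every library.

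PICK1, a scaffold protein of membrane trafficking, held 35.4, 32.3, 28.1 and 36.2 TPM in WM115 WT. It was lower in all 4 of the R1 and R4 clones, by -0.46 (limma adjusted p = 0.0432) in 1.1, -0.84 (limma adjusted p = 0.00439) in 1.2, -0.69 (limma adjusted p = 0.0101) in 4.1 and -0.74 (limma adjusted p = 0.00822) in 4.2. Its call in clone 1.1 was lost with either scaling, with the mitochondrial set as a term and without the filter on low values, and its clone 4.1 call with that term (limma adjusted p = 0.0751). In omissions of a single library the PICK1 call was lost in 6 of 11 in clone 1.1 and in 1 of 9 in 4.1. BAIAP2L2, whose protein shapes membrane protrusions, ends 0.825 kb below PLA2G6 and is the closest gene on that side. It held 9.47, 10.4, 7.33 and 10.8 TPM in WM115 WT and 8.11 to 16.0 TPM in clone 1.1, which overlap. It passed only in clone 1.2, at -1.48 (limma adjusted p = 0.0144), and without library 3 of that clone the difference was -1.01 (limma adjusted p = 0.134).

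AL022322.1, a long non-coding RNA gene inside the span of BAIAP2L2 on the opposite strand, held 2.52, 1.76, 1.93 and 2.94 TPM in WM115 WT. It was lower by -1.26 (limma adjusted p = 0.000448) in clone 1.1, -1.26 (limma adjusted p = 0.00124) in 4.1 and -1.31 (limma adjusted p = 0.00131) in 4.2. The difference of -0.74 in clone 1.2 (limma adjusted p = 0.0332) was lost without its library 3. SLC16A8, a monocarboxylate transporter, was at most 1.54 TPM in WM115 and passed in clones 1.1 (-0.73), 4.1 (-0.82) and 4.2 (-0.72), with limma adjusted p of 0.0154, 0.0160 and 0.0338. With the mitochondrial set as a term its differences were -0.41 in 1.1 and -0.46 in 4.1, and neither passed. Its call in 4.2 was lost with either scaling (limma adjusted p = 0.0527 with median-of-ratios scaling and 0.0697 with quantile normalization), and that in 1.1 with quantile normalization (0.0958). In omissions of a single library the SLC16A8 call was lost in 5 of 9 in clone 4.2 and in 2 of 9 in 4.1. On the other side, TMEM184B, CSNK1E (a casein kinase), the pseudogene TPTEP2 and KDELR3 (a receptor that returns proteins to the endoplasmic reticulum) passed in clone 1.2, all lower, and TPTEP2 also in clone 1.1 at -0.59 (limma adjusted p = 0.0203), lost with either scaling. Only TPTEP2 of these passed in more than that clone, and without library 3 of clone 1.2 none of the 4 passed there. KDELR3 had higher means than WT (59.3 TPM) in clones 1.1 (85.2), 4.1 (80.5) and 4.2 (69.8), and lower ones in 1.2 (33.9) and 1.3 (52.8). With library 3 of clone 1.2 left out of the fit, KDELR3 passed as higher in clone 1.1.

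AL022322.2, an antisense gene of the locus, stood at 0.825 to 0.952 TPM in WM115 WT and 0.067 to 0.295 TPM in clone 1.1. The labels do not state that counting used the strand, so its reads and those of PLA2G6 cannot be told apart, and the same holds for MAFF where it overlaps PLA2G6 and for AL022322.1 inside BAIAP2L2.

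Farther out, neighbours past the test in both clones of a region included genes that rose. In the R4 clones RAC2, a small GTPase, differed by 4.72 in 4.1 and 0.96 in 4.2, APOBEC3G, a cytidine deaminase, by 1.71 and 2.0, CARD10 by 1.59 and 2.02, LGALS1, the gene of galectin-1, by 1.19 and 1.43, and the pseudogene AL031846.1 by 0.95 and 1.48. They lie 432 to 886 kb from PLA2G6. AL031846.1 was at most 0.618 TPM in the WM115 groups other than R4, and RAC2 at most 0.707 TPM in WT and clone 1.1. Both met the filter for testing only through clones where they are high, so the direction of their calls carries no weight. These rises were not confined to R4: LGALS1 also passed in R1 clone 1.1 (1.15), APOBEC3G and RAC2 in R1 clone 1.2 (1.33 and 0.99) and RAC2 in clone 1.3 (1.14). Without library 3 of clone 1.2, APOBEC3G was lost there and RAC2 was not. In clone 4.1 the call of AL031846.1 was lost in 6 of 9 omissions of a single library, that of CARD10 in 4 and that of LGALS1 in 2. In the R1 clones AL031587.5, 167 kb away, was lower by -0.71 in 1.1 and -0.60 in 1.2, the second lost without library 3 (limma adjusted p = 0.116). The positions of all tested neighbours are in the plot by distance.

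**Figure D4:**
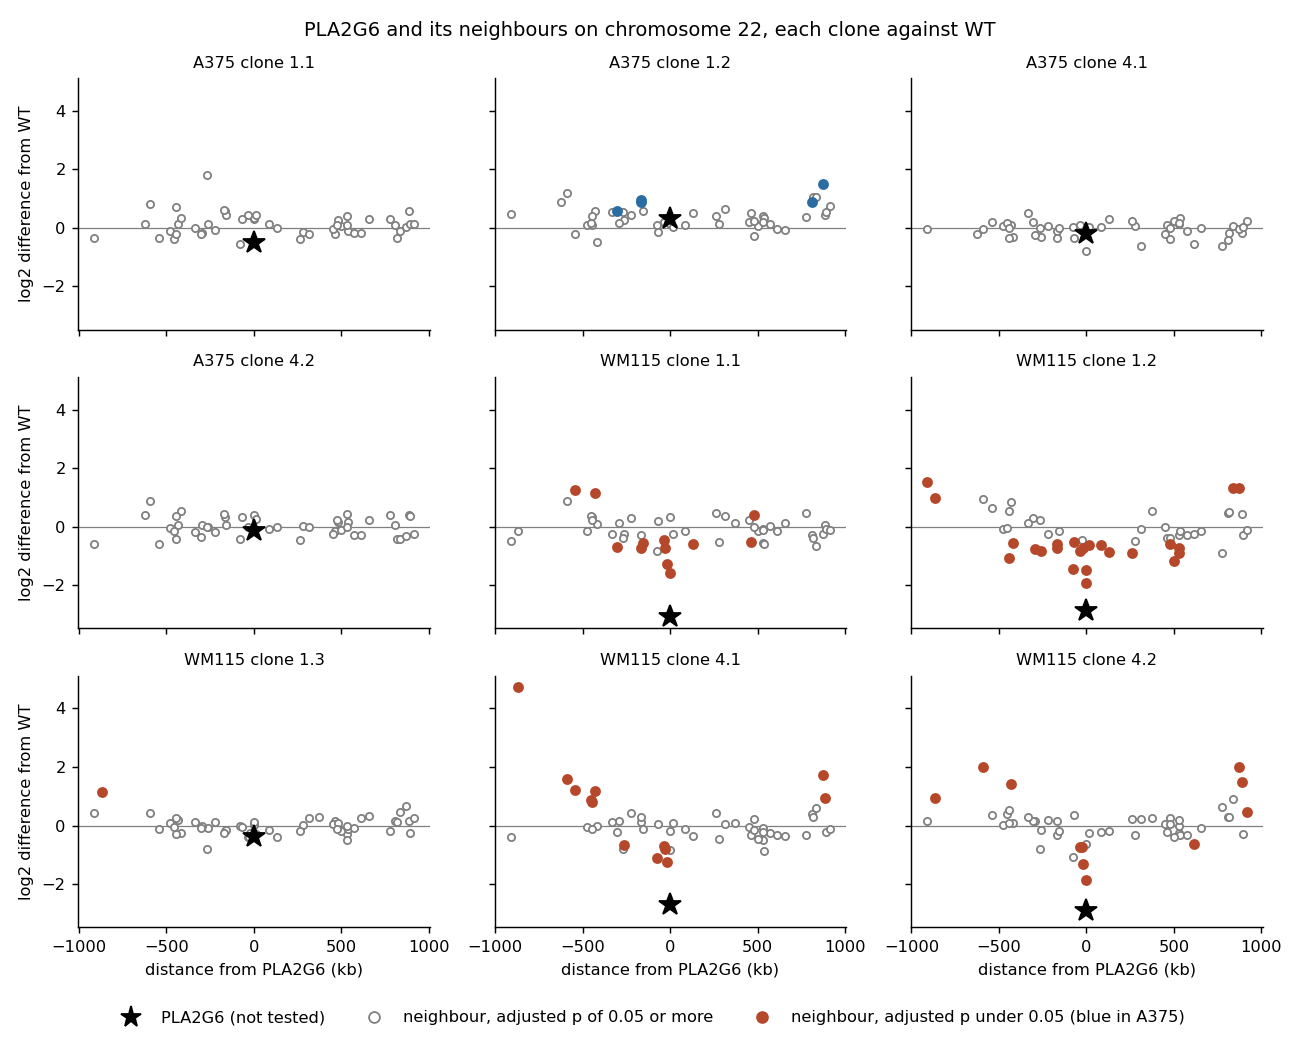
Log2 difference from WT on the log2(TPM + 1) scale for PLA2G6 (star) and its tested neighbours by distance from PLA2G6 (kb; negative values lie toward SOX10), 1 panel per clone; filled points passed at an adjusted p under 0.05. In WM115 clones 1.1, 1.2, 4.1 and 4.2 the star lies lowest, at -3.08, -2.87, -2.73 and -2.91, with MAFF as the next lowest neighbour in clones 1.1, 1.2 and 4.2.

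Genes that work on the same lipids were read from lists chosen by role: other phospholipases A2, enzymes that reattach fatty acids, enzymes that break down lysophospholipids, eicosanoid enzymes, and other genes of brain iron accumulation. Of these 76 genes, 51 were tested in A375 and 53 in WM115. In WM115, 15 passed in clone 1.1 (2 higher, 13 lower), 15 in 1.2 (7 and 8), 15 in 4.1 (5 and 10), 11 in 4.2 (3 and 8) and none in 1.3 with limma, where 9 had an unadjusted p under 0.05. These are 28.3%, 28.3%, 28.3% and 20.8% of the 53, beside 22%, 22.6%, 24.2% and 20.3% of all genes, so the share that passed lies near the background. With WM115 libraries of high mitochondrial share only, 4, 9 and 4 passed in clones 1.1, 1.2 and 4.2, beside 4.55%, 11.5% and 6.51% of all genes. Without library 3 of clone 1.2, 4 passed there. The median difference over the 53 was -0.22 in clone 1.1, -0.02 in 1.2, -0.11 in 4.1 and -0.19 in 4.2. With median-of-ratios scaling 7 passed in clone 1.1 (3 higher, 4 lower), and the splits were 7 and 6 in 4.1 and 5 and 6 in 4.2; with quantile normalization 3 were higher and 5 lower in 1.1. In A375, 1, 5, 0 and 0 of 51 passed with limma in clones 1.1, 1.2, 4.1 and 4.2, beside 1.04%, 8.53%, 1.31% and 0.557% of all genes. In these clones 8, 9, 6 and 3 of the 51 had an unadjusted p under 0.05. With the replicate block 6 passed in clone 4.1, and the share of all genes with that block is not given here. The 5 in A375 clone 1.2 were 4 higher and 1 lower, which became 3 and 2 with median-of-ratios scaling and 3 and 3 with quantile normalization.

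Among the other phospholipases A2 in WM115, 6 of 16 passed in clone 1.1 (all lower), 6 in 1.2 (3 higher, 3 lower), 5 in 4.1 (2 and 3) and 3 in 4.2 (1 and 2), beside 22%, 22.6%, 24.2% and 20.3% of all genes. With either scaling 1 passed in clone 1.1, and without library 3 of clone 1.2 there were 2 in that clone, both higher. With median-of-ratios scaling 3 passed in 4.1 (2 higher, 1 lower) and 4 in 4.2 (2 and 2). PLA2G7, the secreted hydrolase of platelet-activating factor, rose in both R4 clones, from 0.548 ± 0.177 TPM in WT (SD, n = 4) to 5.60 ± 1.13 in 4.1 and 8.91 ± 5.68 in 4.2 (n = 3 each), with log2 differences of 2.08 and 2.53 (limma adjusted p = 0.00365 and 0.00131). PLA2G15, the lysosomal phospholipase A2, fell in the same clones by 0.79 and 0.75 on the log2 scale, from 16.9 ± 2.30 TPM in WT (SD, n = 4) to 9.41 ± 1.498 and 9.69 ± 1.38 (n = 3 each). It also passed in both R1 clones, at -0.41 and -0.45, and both calls were lost with either scaling. PNPLA3, a lipid droplet acyltransferase and lipase, passed in both R1 clones at -0.71 and -0.95, the first lost with either scaling and the second without library 3 of clone 1.2 (limma adjusted p = 0.139). PLA2G7 also passed higher in R1 clone 1.2 (1.39), a call lost in 6 of 8 omissions of a single library. Both R4 calls of PLA2G7 were kept in all 9 such omissions and were lost among libraries of high mitochondrial share (limma adjusted p = 0.245 and 0.0505).

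Of the reacylating enzymes, 4 of 14 passed in WM115 clone 1.1, 5 in 1.2, 5 in 4.1 and 3 in 4.2, all lower except for 2 in clone 1.2, beside the same shares of all genes. In clone 1.1, 1 passed with median-of-ratios scaling and 2 with quantile normalization, and without library 3 of clone 1.2 a single gene passed there, higher. With median-of-ratios scaling 1 of the 5 in clone 4.1 was higher. ACSL1, a long-chain acyl-CoA synthetase, fell in the R4 clones by 2.19 and 2.52 on the log2 scale, from 91.4 ± 41.6 TPM in WT (SD, n = 4) to 17.1 ± 2.38 and 13.6 ± 3.48 (n = 3 each). LPCAT4, a lysophospholipid acyltransferase, fell there by 0.85 and 0.74. Neither was limited to R4: in R1 clone 1.1 LPCAT4 fell by 0.82, kept in all 11 omissions of a single library, and ACSL1 fell by 1.22, lost in 6 of 11 and with either scaling. ACSL3 passed in the R1 clones at -0.59 in each; the call in 1.1 was lost with median-of-ratios scaling (limma adjusted p = 0.0599) and in 3 of 11 omissions of a single library, and the call in 1.2 without library 3 (limma adjusted p = 0.204).

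PTGS2, the inducible cyclooxygenase that uses arachidonic acid freed by phospholipases A2, moved most among the listed genes. It held 5.74 ± 3.02 TPM in WM115 WT (SD, n = 4), 264 ± 41.5 in clone 4.1 and 46.9 ± 17.7 in 4.2 (n = 3 each), differences of 5.41 and 2.89 (limma adjusted p = 4.8e-09 and 3.17e-05). In clone 1.1 it was at 0.717 ± 0.323 TPM (SD, n = 5), below every WT library. PTGS2 was thus high in R4 clones and low in an R1 clone at overlapping levels of PLA2G6. Of the 7 eicosanoid enzymes tested, 2, 1, 2 and 3 passed in clones 1.1, 1.2, 4.1 and 4.2, beside 22%, 22.6%, 24.2% and 20.3% of all genes. In clone 1.2 without its library 3, 0 passed with limma, beside 5.61% of all genes.

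The lysophospholipid enzymes gave 2, 2, 2 and 1 of 8 past the test in these clones, beside 22%, 22.6%, 24.2% and 20.3% of all genes. GDPD1, a phosphodiesterase, passed at -0.71 and -0.90 in the R1 clones, the first lost with either scaling and in 5 of 11 omissions of a single library and the second without library 3 of clone 1.2. GDE1, another, passed at -0.54 and -0.44 in the R4 clones and at -0.55 in R1 clone 1.2, the R4 call in 4.2 lost with median-of-ratios scaling (limma adjusted p = 0.0708). Of the other brain iron accumulation genes 1 of 8 passed in each of the 4 clones, beside the same shares of all genes. FTL, the ferritin light chain, passed higher in both R1 clones (0.73 and 1.11). The first call was lost in 6 of 11 omissions of a single library (limma adjusted p up to 0.113) and the second without library 3 of clone 1.2 (limma adjusted p = 0.0788). COASY, an enzyme of coenzyme A synthesis, passed lower in both R4 clones (-0.33 and -0.59), the first lost with either scaling.

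The genes most like PLA2G6 were ranked by Pearson's r of log2(TPM + 1) over the 39 libraries after centring each line, among 15286 genes tested in both lines. MIR3142HG, a microRNA host gene on chromosome 5, had an r of 0.85, AC126323.1 (chromosome 15) 0.83, ACTN2 (an alpha-actinin, chromosome 1) 0.83, PLEKHH1 (chromosome 14) 0.83 and GOLGA2P11 (chromosome 15) 0.82. Within A375 alone these were 0.66, 0.49, 0.36, 0.59 and 0.75, and within WM115 0.88, 0.89, 0.89, 0.86 and 0.88. Most opposite were RPS15 (-0.79), SUMO2 (-0.77) and PLAUR (-0.77), a ribosomal protein, a small protein modifier and the urokinase receptor. MITF ranked 205 (r 0.66) and SOX10 ranked 1651 (r 0.44). Of the first 100 genes, 13 lie on chromosome 22, which holds 355 of the 15286. The points share clones, libraries and mitochondrial share, and 2 of the first 5 genes remained when the 11 group means were used. The ranking rests on library 3 of clones 1.2 and 1.3: over the 37 other libraries none of the first 5 remained in the first 5, 36 of the first 100 remained in the first 100, and 1 of the first 100 lay on chromosome 22. MIR3142HG then ranked 58 (r 0.80), MITF 1179 (r 0.54) and SOX10 6001 (r 0.15).

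MIR3142HG shows the likeness by library. It held 87.1, 90.4, 19.3 and 106 TPM in WM115 WT and 34.8, 14.4 and 158 TPM in clone 1.3, with library 3 highest. In clone 1.2 it held 12.3, 23.6 and 1.84 TPM, with library 3 lowest. PLA2G6 took its highest and lowest WM115 values in library 3 of clones 1.3 and 1.2, the libraries on which the ranking rests. MIR3142HG shared the highest, but its own lowest WM115 value was 1.59 TPM in clone 4.2.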

How the data were processed

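The authors deposited gene and transcript values in TPM; 6 value columns of each table match no sample and were not used. Per the submitters' processing notes DRAGEN and GRCh38 were used; the role of each, the annotation release and strandedness are not given in the sources used here. Per the labels' protocols, polyadenylated RNA was captured and cDNA primed with random hexamers. Without counts the depth is unknown, so no counting interval was computed and a value of 0 is called listed at 0. Libraries were grouped by line and clone as labelled. log2(TPM + 1) was fitted in each line with limma 3.58.1 (R 4.3.3), 1 coefficient per group, a variance trend, and two-sided tests with Benjamini-Hochberg adjustment over 16692 genes in A375 and 16997 in WM115, those at 1 TPM or above in 3 or more libraries of the line; the script was tested on simulated data. Past the test means an adjusted p under 0.05. Such p-values measure the spread between libraries of 1 clone, which may be technical. Positions are from GENCODE 29 and promoters from RefSeq. PLA2G6, the lists, the neighbours and the alternatives were chosen with earlier results of these data known. Named were PLA2G6, SOX10 and MITF; the 4 nearest tested neighbours on either side, with those past the test the same way in both clones of a region; up to 4 genes per lipid list by the smaller difference of both clones; and the 5 genes most and 3 least like PLA2G6. AL022322.2 and the transcripts were singled out after their values were seen. The replicate numbers pair A375 clone 4.1 with WT (same-numbered libraries deviate together, r 0.33 to 0.78 in 4 pairs), which rests on the data and not on the labels. Alternatives were another pseudocount, scaling, filter, window or minimum difference, a block, a term for the mitochondrial set, and libraries left out. A marker of the fixed list is not reported here.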

Additional observations from a re-analysis of the deposited data

Results flagged for a closer look

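In groups of 4 to 10 libraries, 3 of the 60 groups tested held a library far from the rest, where chance gives about 1 in 20: SLC16A8 at 0.874 TPM in replicate 3 of A375 clone 4.1 and at 0.899 TPM in replicate 2 of WM115 WT, and TPTEP2 at 6.14 TPM in replicate 3 of A375 clone 4.1. PLA2G6 itself showed none in the groups tested. Groups of 3 libraries, WM115 clones 1.2 and 1.3 among them, were not tested.

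For 11 pairs of a gene and a clone number, all libraries of the A375 clone lay to 1 side of the WT mean and all of the WM115 clone to the other; the difference between the lines was not tested, and a clone number names separate clones in the lines. The WM115 difference minus the A375 difference, on the log2(TPM + 1) scale, was -1.93 for MAFF in clone 1.1 and -2.20 in 1.2, and -0.91 for PICK1 in clone 1.1 and -1.06 in 1.2. It was -1.63 for BAIAP2L2, -1.29 for KDELR3 and -0.75 for CSNK1E in clone 1.2, and -0.29 for CSNK1E in 1.1. It was -0.51 for SOX10 and -0.64 for TPTEP2 in clone 4.1, and -0.52 for TMEM184B in clone 4.2.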

How the results depend on the processing

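The labels name 1 clone per deletion group, R1 and R4 are not located, depth is unknown, and low genes have differences compressed by the pseudocount. Of the alternatives for the PLA2G6 differences, 134 stayed within 1 SD of the libraries and 4 moved further: with the mitochondrial set as a term the difference was -2.19 in WM115 clone 1.1 and -1.74 in 4.1, and with libraries of high share only (chosen after seeing the data, as are low share only, the library left out of other clones' fits, the likeness over 37 libraries and the count with PLA2G6-223) -2.07 and -2.08. Direction was checked only where the main difference exceeded 1 SD, so smaller differences could change sign and still be counted among the 134. Causes of the changes below were not tested.

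Neighbours past the test, by clone. The window of 0.5 Mb holds 30 tested genes in A375 and 33 in WM115, against 49 and 53 within 1 Mb. The share past the test in the smaller window was 10% against 10.2% in A375 clone 1.2. In WM115 it was higher in the smaller window in clones 1.1 (33.3% against 22.6%) and 1.2 (51.5% against 45.3%). It was 24.2% against 24.5% in WM115 clone 4.1 and 15.2% against 20.8% in 4.2. With libraries of high share, 4.55%, 11.5%, 0.359% and 6.51% of all genes passed in WM115 clones 1.1, 1.2, 1.3 and 4.2. The share of all genes with the replicate block is not given here, so counts with the block have no background beside them. In A375: clone 1.1 gave 1 without the filter; clone 1.2 gave 1 at a minimum log2 difference of 1, 9 with the mitochondrial set as a term, 0 with libraries of low share, 2 with the replicate block and 3 within 0.5 Mb; clone 4.1 gave 6 with the replicate block. In WM115: clone 1.1 gave 4 at the minimum difference, 7 at a mean TPM of at least 5 and 3 with libraries of high share; clone 1.2 gave 8 at the minimum difference, 7 with only its group and WT fitted, 0 with the block and 13 with high share; clone 1.3 gave 0 with quantile normalization, a mean TPM of 5, no filter, only its group and WT, the block, high share, or 0.5 Mb; clone 4.1 gave 7 at the minimum difference, 8 at a mean TPM of 5, 7 with the term, 4 with the block, 1 with high share and 8 within 0.5 Mb; clone 4.2 gave 6 at the minimum difference, 1 with the block, 2 with high share and 5 within 0.5 Mb. Leaving out 1 library gave 0 to 1 in A375 clone 1.1 and 4 to 9 in 1.2, and in WM115 7 to 14 in 1.1, 4 to 26 in 1.2, 0 to 1 in 1.3, 5 to 14 in 4.1 and 6 to 14 in 4.2.

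Phospholipid genes past the test, by clone. In A375: clone 1.1 gave 0 at a mean TPM of 5, with low share, with only its group and WT, and with the block; clone 1.2 gave 2 at the minimum difference, 2 with low share and 2 with the block; clone 4.1 gave 1 with quantile normalization and 6 with the block. In WM115: clone 1.1 gave 3 at the minimum difference, 7 with median-of-ratios scaling, 8 with quantile normalization and 4 with high share; clone 1.2 gave 5 at the minimum difference, 6 with only its group and WT, 0 with the block and 9 with high share; clone 1.3 gave 1 with the term; clone 4.1 gave 3 at the minimum difference, 9 with the term, 3 with the block and 1 with high share; clone 4.2 gave 4 at the minimum difference, 2 with the block and 4 with high share. Leaving out 1 library gave 0 to 2 in A375 clone 1.1 and 0 to 1 in 4.2, and in WM115 6 to 19 in 1.1, 4 to 18 in 1.2, 0 to 5 in 1.3, 8 to 16 in 4.1 and 7 to 15 in 4.2. The libraries whose omission moved a count of neighbours by over 1.5 times were, in A375, library 1 of clone 1.1 and, for clone 1.2, WT 2; in WM115 they were WT 1 and 4 for clone 1.1, library 3 of 1.2, libraries 1 and 2 of 1.3 and WT 1, 2 and 3, libraries 1 and 2 of 4.1 and WT 4, and libraries 1 and 2 of 4.2 and WT 1 and 4. For the phospholipid genes they were, in A375, each library of clone 1.1 and WT 4, and library 1 of 4.2 and WT 4; in WM115 they were libraries 2 and 3 of 1.1 and WT 1, 2 and 4, library 3 of 1.2 and WT 1, library 3 of 1.3, libraries 1 and 2 of 4.1, and library 2 of 4.2. A clone left with 1 library is assumed to vary like the others. Outside A375 clone 4.1 the replicate numbers did not pair the libraries (r of same-numbered deviations from -0.62 to 0.33; no such clone had every library correlate best with its own number), and the block changed no PLA2G6 difference by more than 1 SD.

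Pearson's r of PLA2G6 with SOX10 was -0.23 in A375 without the 2 farthest libraries and 0.33 without clone 1.2, and in WM115 -0.20 with low and 0.78 with high mitochondrial share. With MITF it was 0.003378 with low and 0.80 with high share in A375, and in WM115 0.91 without clone 1.1, -0.42 with low share and 0.85 with high share.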
